A study of Mus musculus with 6 samples.

Results

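The region described here is the megabase of mouse chromosome 2 that holds Bmp2, with the gene-poor stretches on both sides of the gene. Its peaks were chosen by position: every listed peak of the 6 libraries whose summit lay on chromosome 2 between 133000000 and 133999999 (GRCm39) was taken. That gave 369 of the 1453803 peaks listed on the assembled chromosomes. The stretch itself was selected on earlier results from these same peak lists, including the differences between days, so all values between days are given as a description and without a test. The Bmp2 start used for all distances is position 133394079 on the plus strand. The protein-coding genes that flank Bmp2 in the RefSeq gene order are Fermt1 before it and Hao1 after it, with long non-coding RNA genes, pseudogenes and small RNA genes such as Mir3090 in between.

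Bmp2 encodes a secreted ligand of the bone morphogenetic protein family. It binds a complex of serine/threonine kinase receptors, which phosphorylate SMAD proteins that then enter the nucleus and act on target genes. BMP signals promote the commitment of mesenchymal precursors to cartilage and, in the growth plate, the later maturation of chondrocytes. In the mouse, expression of Bmp2 is known to depend on regulatory elements far from the gene, and an enhancer that acts in osteoblast progenitors lies in the stretch after it.

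The assay was ATAC-seq: the transposase Tn5 cuts accessible DNA and tags the ends for sequencing. The cells were ATDC5, a single mouse line of cartilage precursors, so every group carries the same genetic background. They were plated as dense droplets and kept in medium with beta-glycerophosphate and an ascorbate phosphate. The groups were Day0, which the labels call the control, and Day3 and Day10, labelled as differentiation, for days 0, 3 and 10 in that medium, each with 2 libraries from separate biological replicates. ATAC-seq of bulk cells cannot tell whether a site was open in more cells or more open in each. No gene annotation of the lists' build was used here, so the cell type was not checked against peaks at marker genes.

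The Day0 lists held 164642 and 164960 peaks, the Day3 lists 177751 and 177111, and the Day10 lists 381376 and 390100. Total read numbers were not used here. Lists of such different length are compared below in 2 ways. The fold is the authors' own value. It is read here as the read pileup at the summit plus 1, divided by a single background level of that library plus 1. The rank is the place of a peak in its own list, 1 being the strongest. The fold at rank 50000 lay between 14.5 and 17.8 in the 6 libraries, and at rank 100000 between 6.67 and 10.2. The smallest fold listed anywhere was 3.50 and 3.47 at day 0, 3.34 in both Day3 libraries, and 2.88 and 2.79 at day 10, so a site that is not listed may still have been weakly open. The Day10 lists also had the smallest minimum peak width, 68 and 72 bases, where the remaining 4 lists began at 87 to 90, and the peak names of the Day3 lists, unlike the others, include the word lysis. Day and any separate handling of these libraries cannot be told apart.

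The megabase held 42 and 45 listed peaks at day 0, 41 and 42 at day 3, and 92 and 107 at day 10. The Day10 libraries thus listed 2.29 times as many peaks here as the Day0 libraries, while over all assembled chromosomes the ratio was 2.34. For day 3 over day 0 the ratio was 0.95 here and 1.08 over all assembled chromosomes, and for day 10 over day 3 it was 2.40 here and 2.18 there. With only the peaks kept whose -log10 q was at least 5, the ratios here and there were 1.70 and 1.52 for day 10 over day 0, 2.08 and 1.70 for day 10 over day 3, and 0.82 and 0.90 for day 3 over day 0. The share of a list that fell in this megabase lay between 0.0231% and 0.0275% in every library. Among the 50000 strongest peaks of each library, where list length plays no part, the megabase held 4 and 5 peaks at day 0, 6 in each Day3 library, and 12 and 14 at day 10. The best rank of any peak here was 25672 and 19983 at day 0, 23222 and 20901 at day 3, and 6849 and 8063 at day 10.

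The peaks listed at day 10 beyond the Day0 number lay mostly before the gene, in lists of unequal length. Before the Bmp2 start there were 19 and 21 peaks at day 0, 19 and 21 at day 3, and 57 and 67 at day 10. After the start there were 23 and 24 peaks at day 0, 22 and 21 at day 3, and 35 and 40 at day 10. The day 10 over day 0 ratio was 3.10 before the start and 1.60 after it, beside 2.34 over all assembled chromosomes. These counts by side use whole lists, not equal numbers of the strongest peaks. In the 100 kb just before the start, Day0 libraries listed 8 and 10 peaks, Day3 libraries 8 and 10, and Day10 libraries 23 and 30. In the 100 kb just after it, the counts were 6 and 5 at day 0, 4 in each Day3 library and 6 in each Day10 library. The 100 kb before and the 100 kb after the gene start thus differed in what was listed at day 10 in both libraries. Since the Day10 lists are longer, nothing further is read from the counts by side.

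**Figure D1:**
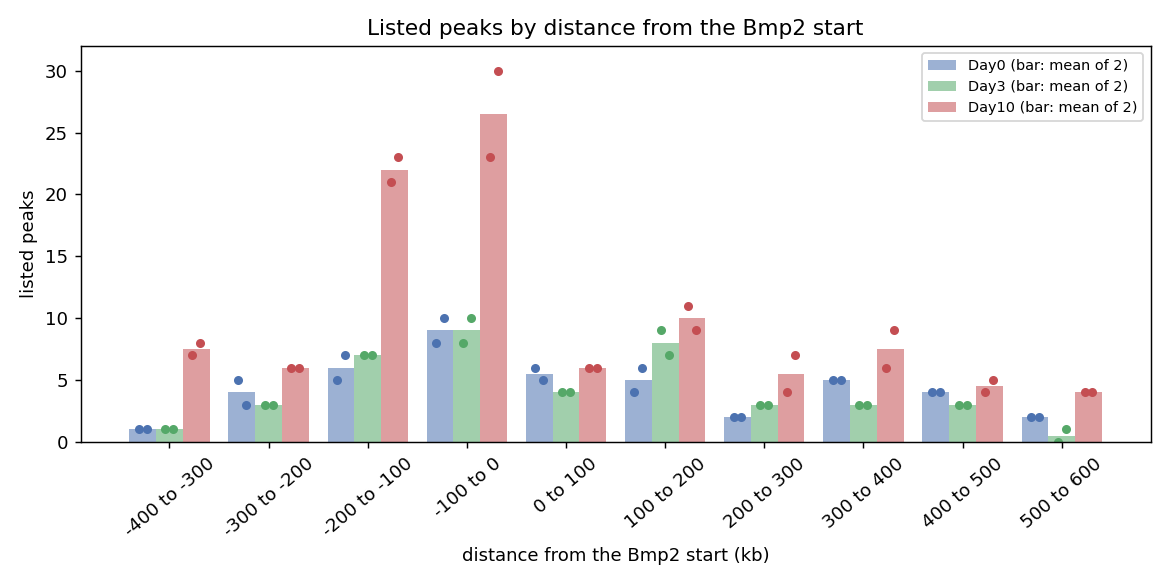
Number of listed peaks (y axis) in stretches of 100 kb by distance from the Bmp2 start (x axis, kb, negative before the gene), with points for single libraries and bars for the mean of 2. The first stretch begins at the edge of the megabase, 394.1 kb before the start. The Day10 bars are tallest in the 200 kb before the start.

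No peak was listed at the Bmp2 start itself. No library had a summit within 500 bases of it, and no listed peak covered it. The peak numbers in each list run without a break, so no row was taken out there after numbering. Any filter before numbering cannot be seen in the lists. The nearest summits lay 1.83 to 1.86 kb before the start and belonged to a peak listed in all 6 libraries. On the other side, the nearest summit after the start was at 18.4 kb in both Day0 libraries, 62.7 kb in both Day3 libraries and 39.5 kb in both Day10 libraries. The RefSeq length of the gene is 10738 bases, so no summit was listed within Bmp2 in any library.

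The peak before the promoter had a fold of 6.41 and 7.51 at day 0, 12.2 and 10.0 at day 3, and 13.0 in both Day10 libraries. Both later days were higher than Day0 and did not overlap it. The mean fold was 6.96 ± 0.78 at day 0, 11.1 ± 1.57 at day 3 and 13.0 ± 0.04 at day 10 (SD, n = 2 each), which is 1.60 times Day0 at day 3 and 1.86 times Day0 at day 10. The rank, which does not take the length of the list into account, had another order. It was 114333 and 100739 at day 0, 58949 and 71328 at day 3, and 74371 and 74337 at day 10, so its rank was lowest in number at day 3. As a share of the whole list, which was longest at day 10, it stood at 69.6% and 61.2% from the top at day 0, 33.2% and 40.3% at day 3, and 19.5% and 19.1% at day 10. Few reads stand behind it. The pileup was 26 and 27 reads at day 10, with 95% exact Poisson intervals of 17.0 to 38.1 and 17.8 to 39.3, against 10 and 12 at day 0, with intervals of 4.8 to 18.4 and 6.2 to 21.0. These intervals cover counting error only, and those of Day10 overlap those of Day0. Unlike the fold, the pileups given here and below are not scaled by the library background, which was higher at day 10. The peak was also wider at day 10, at 361 and 421 bases, than at day 0, at 99 and 110 bases.

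**Figure D2:**
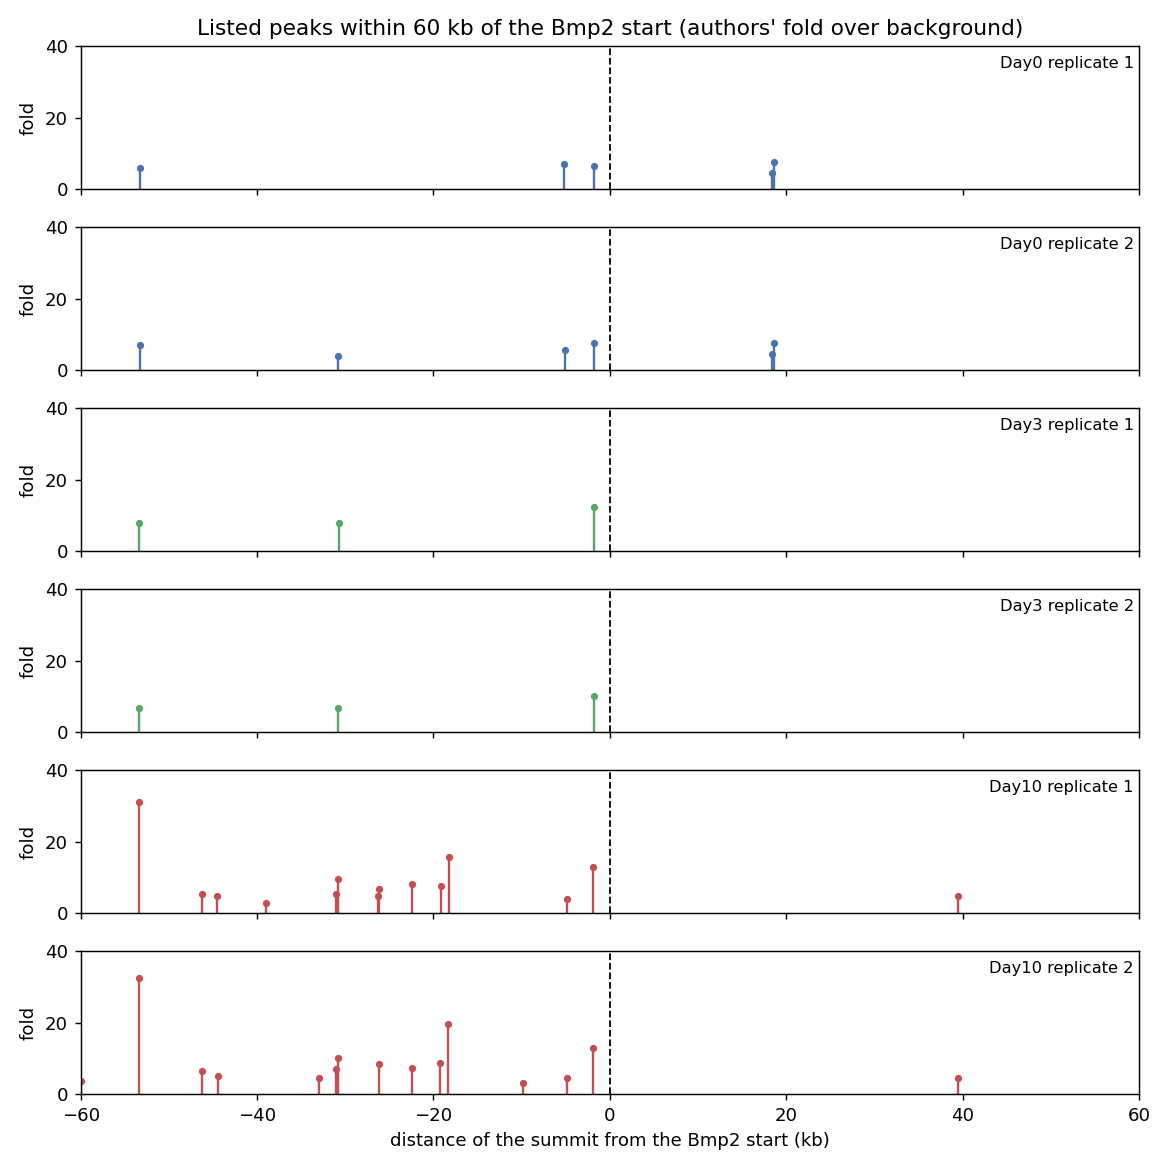
Listed peaks within 60 kb of the Bmp2 start, 1 panel per library, with the distance of the summit on the x axis (kb) and the authors' fold on the y axis. The dashed line is the gene start. The peak nearest to it stands before the start in every panel, and no panel has a peak between the start and 18.4 kb after it.

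The strongest sites were described as 16 regions, windows reaching 250 bases to each side of a summit that was among the 50000 strongest peaks of at least 1 library. The genome held 78698 such regions. Gained regions are those with a rank up to 50000 in each library of the later day that were unlisted or past rank 100000 in each library of the earlier one. Lost regions meet the reverse condition. At day 10 against day 0, 10 of the 16 regions were gained, beside 12.0% of all regions, and 1 was lost, beside 10.0%. At day 10 against day 3, 6 were gained, beside 9.08%, and 1 was lost, beside 4.59%. At day 3 against day 0, 1 was gained, beside 1.17%, and none of the 16 was lost, beside 1.72%. Since the megabase was chosen with these differences known, nothing is read from how its shares differ from those of all regions. Of the 10 regions gained at day 10 against day 0, 8 lay before the gene and 2 after it. Most of the 16 regions lay before the gene as well, so the 8 and 2 are not read as a difference between the sides.

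**Figure D3:**
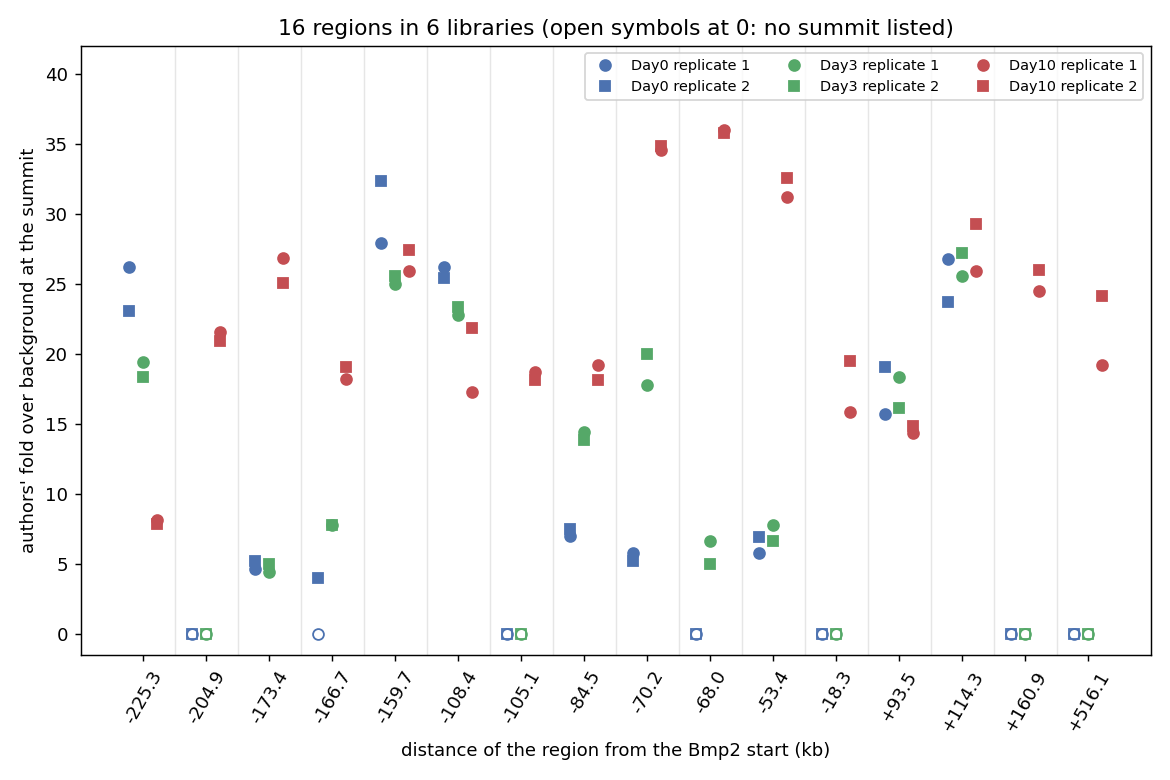
Authors' fold at the summit (y axis) of the 16 regions, ordered by distance from the Bmp2 start (x axis, kb), with circles for replicate 1 and squares for replicate 2. Open symbols at 0 mark libraries with no summit listed in the region. The Day10 symbols stand highest at 70.2, 68.0 and 53.4 kb before the start, and the region 225.3 kb before the start has the opposite order.

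The 3 regions with the best Day10 ranks lay between 70.2 and 53.4 kb before the Bmp2 start. The first, at 70.2 kb (133323661 to 133324161), had a fold of 5.83 and 5.20 at day 0, 17.8 and 20.0 at day 3, and 34.5 and 34.9 at day 10. The days did not overlap, and Day3 stood between the others. Its Day10 mean was 34.7 ± 0.22, against 5.51 ± 0.44 at day 0 (SD, n = 2 each), a ratio of 6.29. It was the single region of the 16 gained at day 3, with ranks of 39608 and 34554 at day 3 against 124003 and 136267 at day 0. The pileups were 71 and 74 reads at day 10 against 9 and 8 at day 0.

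The second, at 68.0 kb (133325858 to 133326358), was not listed at day 0. Its fold was 6.67 and 5.00 at day 3, and 36.0 and 35.8 at day 10, where it ranked 6849 and 8063 and was the best placed site of the megabase. It lies close to the region at 70.2 kb, yet at day 3 that neighbour already had a fold of 17.8 and 20.0. The 2 sites thus differed in their Day3 level while reaching similar levels at day 10.

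The third, at 53.4 kb (133340420 to 133340920), had a fold of 5.83 and 6.93 at day 0, 7.78 and 6.67 at day 3, and 31.2 and 32.5 at day 10. Day0 and Day3 overlapped, and Day10 stood apart from both. The Day10 mean was 31.9 ± 0.96, against 6.38 ± 0.78 at day 0 (SD, n = 2 each), a ratio of 4.99.

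Farther before the gene, 5 more regions were gained at day 10 against day 0. The region at 173.4 kb (133220437 to 133220937) had a fold of 4.66 and 5.20 at day 0, 4.45 and 5.00 at day 3, and 26.9 and 25.1 at day 10. The first 2 days overlapped, and the Day10 mean was 5.27 times that of Day0. The pileup was 55 and 53 reads at day 10, with 95% exact Poisson intervals of 41.4 to 71.6 and 39.7 to 69.3, against 7 and 8 at day 0, with intervals of 2.81 to 14.4 and 3.45 to 15.8.

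The region at 166.7 kb (133227165 to 133227665) was listed at day 0 in replicate 2 alone, with a fold of 4.04. It had a fold of 7.78 in both Day3 libraries, and 18.2 and 19.1 at day 10, so Day3 again stood between the other days. The region at 84.5 kb (133309296 to 133309796) had a fold of 6.99 and 7.51 at day 0, 14.5 and 13.9 at day 3, and 19.2 and 18.1 at day 10. The 3 days did not overlap, but this region is close to the rank limits. Its Day0 ranks of 106470 and 100738 lie just beyond 100000, and its Day3 ranks of 50012 and 52542 just miss 50000.

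The region at 105.1 kb (133288710 to 133289210) was listed at day 10 alone, with a fold of 18.7 and 18.1 and ranks of 44693 and 47667, just inside the limit. The region at 204.9 kb (133188919 to 133189419) likewise held a summit at day 10 alone, with a fold of 21.6 and 20.9. The Day10 peak there was 1294 and 1414 bases wide, and it covered a weaker peak of the other days with its summit outside the window. That peak had a fold of 7.57 and 6.36 at day 0, and 10.6 and 8.90 at day 3. This site was therefore listed on all days, and the call rests on a summit that differed in place as well as in strength.

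Just outside the limit was a region 18.3 kb before the start (133375538 to 133376038), the nearest of the 16 to the gene. It was not listed at day 0 or Day3 and had a fold of 15.8 and 19.5 at day 10. Its Day10 ranks of 57457 and 42416 fell on both sides of 50000, so it was not called. Without Day10 replicate 1 the count of gained regions was 11.

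After the gene, 2 regions were gained at day 10. The region 160.9 kb after the start (133554700 to 133555200) was not listed at day 0 or Day3 and had a fold of 24.5 and 26.0 at day 10, from pileups of 50 and 55 reads. The region at 516.1 kb (133909890 to 133910390) was also listed at day 10 alone, with a fold of 19.2 and 24.2. In both, the Day10 libraries were alike in showing a strong peak where the other 4 lists had none. No further region after 160.9 kb other than that at 516.1 kb reached the 50000 strongest peaks of any library, so most of the desert after the gene held only weaker sites.

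**Figure D4:**
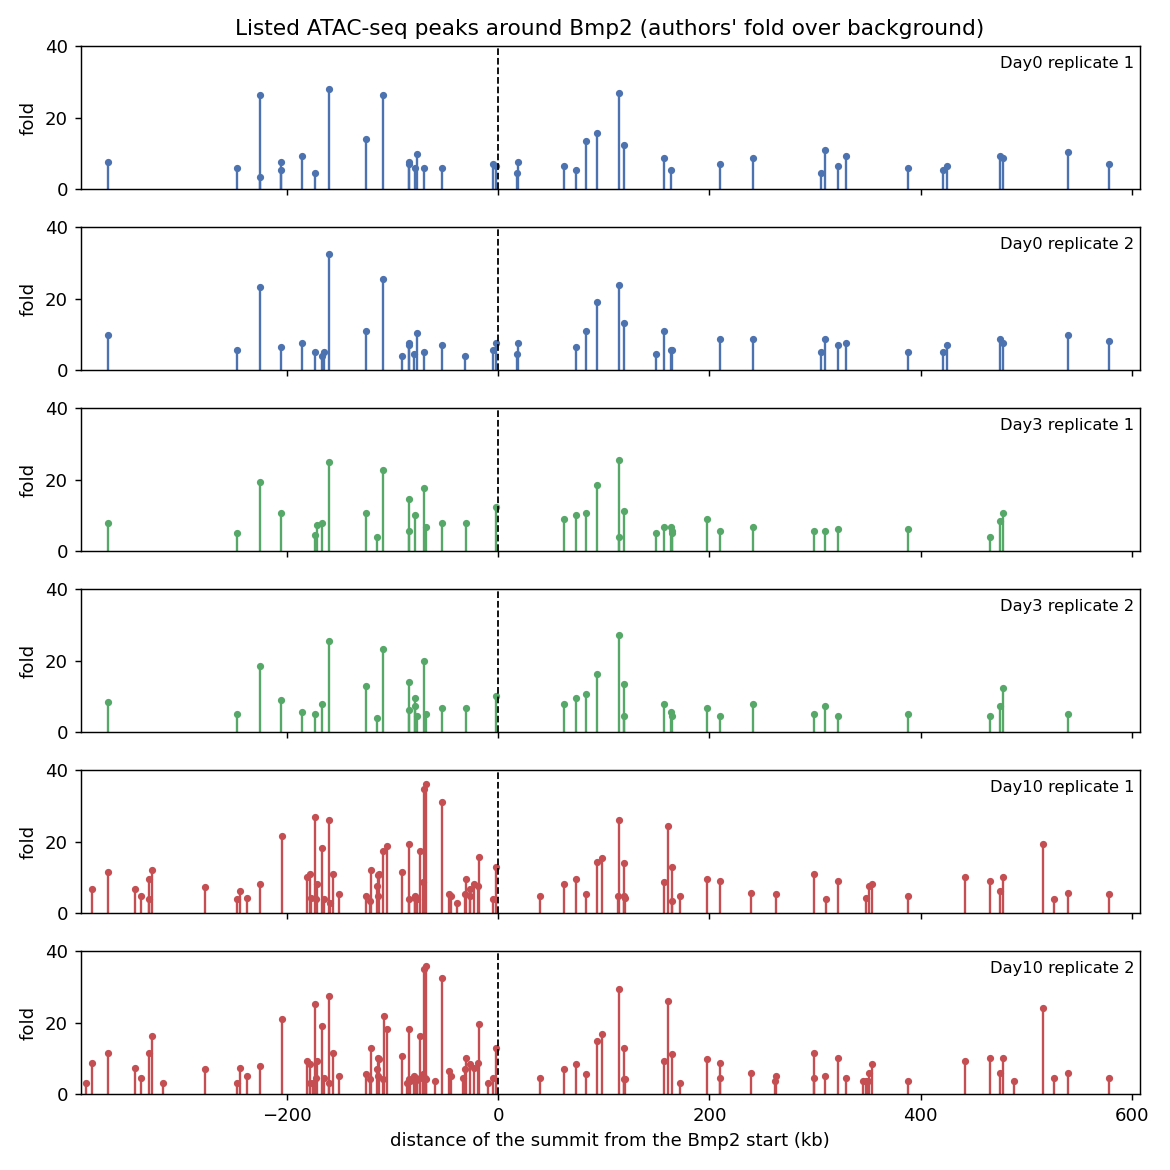
All 369 listed peaks of the megabase, 1 panel per library, by distance of the summit from the Bmp2 start (x axis, kb) and authors' fold (y axis). The dashed line is the gene start. The Day10 panels have more and higher peaks before the gene, while sites at 159.7 kb before and 114.3 kb after the start stand out on every day.

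Other strong sites differed little between days. The region 159.7 kb before the start (133234158 to 133234658) had a fold of 28.0 and 32.4 at day 0, 25.0 and 25.6 at day 3, and 25.9 and 27.4 at day 10. The region 114.3 kb after the start (133508144 to 133508644) had a fold of 26.8 and 23.7 at day 0, 25.6 and 27.2 at day 3, and 25.9 and 29.3 at day 10. In the region after the gene all 3 days overlapped. In the region before it Day10 overlapped neither the Day3 nor the Day0 values, but the gaps were smaller than the difference between the Day0 libraries. Both ranked between 17857 and 33637 in every library, and these were the 2 regions kept between Day0 and Day10, beside 34.9% of all regions. The region at 93.5 kb after the start had a fold of 15.7 and 19.1 at day 0, 18.4 and 16.1 at day 3, and 14.4 and 14.9 at day 10. Both Day10 values there were below all others, and the Day10 mean was 0.84 times that of Day0.

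The opposite direction was seen 225.3 kb before the start (133168513 to 133169013), in the single lost region. Its fold was 26.2 and 23.1 at day 0, 19.5 and 18.4 at day 3, and 8.16 and 7.90 at day 10. The days did not overlap and Day3 stood in between. The Day10 mean was 8.03 ± 0.18, against 24.7 ± 2.20 at day 0 (SD, n = 2 each), a ratio of 0.33. The peak was still listed at day 10, at ranks 123423 and 126700. The region at 108.4 kb before the start had a fold of 26.2 and 25.4 at day 0, 22.8 and 23.4 at day 3, and 17.3 and 21.9 at day 10. Its Day10 values were the lowest, and the 2 Day10 libraries differed from each other by more than the Day0 libraries did.

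Weaker sites were counted as loci, made by merging overlapping peaks of all 6 lists. Peaks that adjoined without sharing a base stayed separate loci. The megabase held 118 of the 439652 loci of the genome, 69 before the Bmp2 start and 49 after it. Of these, 24 were listed in all 6 libraries and 45 in both Day10 libraries and no other. Loci listed in both Day10 libraries and no Day0 library numbered 51, or 43.2% of the 118, beside 41.4% over the genome. Those listed in both Day10 libraries and no Day3 library numbered 48, or 40.7%, beside 37.5%. In the other direction, 12 loci, or 10.2% of the 118, were listed in both Day0 libraries and no Day10 library, beside 4.89%, and 5, or 4.24%, in both Day3 libraries and no Day10 library, beside 2.85%. At day 3 against day 0, 5 loci, or 4.24%, were listed in both Day3 libraries and no Day0 library, beside 5.50%, and 8, or 6.78%, in both Day0 libraries and no Day3 library, beside 4.70%.

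Of the 45 loci listed at day 10 alone, 31 lay before the gene and 14 after it, beside 69 and 49 of all 118 loci. Their Day10 fold ranged from 3.25 to 26.0 with a median of 6.97, so most were weak. Beyond the regions already described, the strongest included a site 74.1 kb before the start, with a fold of 17.3 and 16.3, and a site 97.9 kb after it, with 15.4 and 16.7. A group of 6 such loci lay between 120.9 and 112.8 kb before the start, with the highest fold, 12.0 and 13.0, at 120.0 kb. The stretch between 368.7 and 246.7 kb before the start was picked as the longest gap between listed peaks at day 0. The Day3 lists held no peak there either, and each Day10 list held 6. The strongest of those, at 327.8 kb, had a fold of 12.0 and 16.3.

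Of the 12 loci listed in both Day0 libraries and no Day10 library, 3 lay before the start and 9 after it. Their Day0 fold ranged from 4.62 to 11.1 with a median of 6.96. A site 309.1 kb after the start had a fold of 11.1 and 8.67 at day 0, and 5.56 and 7.23 at day 3. A site 241.3 kb after the start had a fold of 8.74 and 8.67 at day 0, and 6.67 and 7.78 at day 3. Nearer the gene, sites 5.1 kb before and 18.6 kb after the start were listed at day 0 alone, with folds of 6.99 and 5.78 and of 7.57 and 7.51. None of these was among the strong sites of its library.

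The 24 loci listed in every library also differed among themselves. The ratio of the Day10 to the Day0 mean fold ranged from 0.33 to 6.29 with a median of 1.07, and it was above 1 in 13 loci and below 1 in 11. The fold as read here adds 1 to both pileup and background, and the background was higher at day 10. Ratios near 1 depend on that formula, so the 13 and 11 are not read as a direction. Besides the lost region, the loci with the lowest ratios were a site 124.9 kb before the start and a site 83.5 kb after it. The first had a fold of 14.0 and 11.0 at day 0, 10.6 and 12.8 at day 3, and 4.80 and 5.58 at day 10. The second had a fold of 13.4 and 11.0 at day 0, 10.6 in both Day3 libraries, and 5.28 and 5.58 at day 10. In both sites Day0 and Day3 were alike, within or close to the spread of the replicates, and both Day10 values were below all others.

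Within the stretch around 160 kb after the gene start, neighbouring sites took different courses. A site at 157.1 kb had a fold of 8.74 and 11.0 at day 0, 6.67 and 7.78 at day 3, and 8.64 and 9.30 at day 10, with Day0 and Day10 overlapping. At 160.9 kb stood the region listed at day 10 alone. At 163.5 kb a site had a fold of 5.24 and 5.78 at day 0, 6.67 and 5.56 at day 3, and was not listed at day 10. At 164.2 kb a site listed at day 0 in replicate 2 alone, with a fold of 5.78, had 5.56 and 4.45 at day 3, and 13.0 and 11.2 at day 10. Whether any of these matches the known osteoblast enhancer was not examined, since its position in this build was not used here.

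The limits of the megabase decide which sites are described. The last summit before the lower limit lay 1.3 to 1.4 kb outside it in every library, with a fold between 5.24 and 10.7. The first summit inside it had a fold of 7.57 and 9.82 at day 0, 7.78 and 8.34 at day 3, and 6.72 and 3.25 at day 10. At the upper limit, the last summit inside had a fold of 6.99 and 8.09 at day 0, 10.6 and 5.00 at day 3, and 5.28 and 4.65 at day 10. The first summit beyond it lay 184.6 kb outside in both Day0 libraries, with a fold of 37.3 and 36.4, above every Day0 peak inside the megabase. It lay 31.5 and 31.8 kb outside at day 3, with a fold of 5.56 and 12.8, and 15.5 kb outside in both Day10 libraries, with a fold of 8.16 and 8.83.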

How the data were processed

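Each of the 6 ATDC5 libraries, 2 per day, has its own deposited narrowPeak list. Per the submitters' processing notes, reads were trimmed with Trim Galore. Neither aligner nor peak caller, with their settings and any Tn5 shift, is given in the sources used here. The authors' fold is a ratio over background. The deposited lists also hold a -log10 p and a -log10 q, and an integer score that was not used further. The deposited fold took even steps. From a step fitted to them, the pileup was recovered as fold times (background + 1) minus 1. In each library 100% of pileups were whole within 0.01. That shows even steps only and does not check the added 1 or the background. The background was 0.7165 and 0.7308 at day 0, 0.7985 and 0.7984 at day 3, and 1.0845 and 1.1515 at day 10.

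The processing notes name mm10, but scaffold names in all 6 lists belong to GRCm39. The Bmp2 start was taken from the definition of the region. As a check, the ends of 153 protein-coding genes within 10 megabases of Bmp2 in the RefSeq table (GRCm38.p6) were compared with strong summits: 6.86% lay within 500 bases of one as tabulated, and 33.3% after moving all by the offset of the Bmp2 start. Positions are counted from 1.

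Peaks on chromosomes 1 to 19, X and Y were ranked by -log10 p, then fold, then position. Where windows overlapped, the better rank was kept. The window and call steps were tested on simulated data. Python 3.11.15, pandas 2.3.3, numpy 2.4.6, scipy 1.17.1 and matplotlib 3.10.9 were used. The region, the sites and the rules were chosen with earlier results of these data known. All gained and lost regions, the kept regions and those near the limits are named. Comparisons at gene starts (the BMP pathway list, cell type markers, genes with a pattern like that of Bmp2) and promoter motifs were not run, since no annotation of the build was used here. The planned fold at the Bmp2 start gave no value, so the nearest peak was used in its place. Alternatives covered rank limits, rank gap, overlap, window width, -log10 q and leaving out each library.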

Additional observations from a re-analysis of the deposited data

How the results depend on the processing

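Of 84 alternative values for the counts of gained and lost regions, the ratios of listed peaks and the peak nearest the gene start, 75 stayed within 1.5 times the reported count or ratio or, for the peak, within the larger replicate SD of the days compared, 8 moved and 1 turned direction. With the 30000 strongest peaks in place of 50000, the gained regions numbered 5 at day 10 against day 0, 3 at day 10 against day 3 and 0 at day 3 against day 0, and the lost regions numbered 0 in both Day10 comparisons; the stricter limit leaves fewer regions to call. Without a gap between ranks, 9 regions were gained and 2 lost at day 10 against day 3. With a fold of 16 and 8 in place of ranks, an alternative chosen after seeing the data, the region 225.3 kb before the start was not called lost, giving 0 in both Day10 comparisons, because one of its Day10 folds was 8.16. The day 3 over day 0 ratio of listed peaks turned to 1.33 among the 50000 strongest peaks, so no direction is given for it. Counting any overlapping peak changed none of these region counts, and windows reaching 500 bases to each side gave 9 gained regions at day 10 against day 0.

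Leaving out each library in turn gave 10 to 11 gained regions at day 10 against day 0 and 6 to 7 at day 10 against day 3. It gave ratios of listed peaks of 2.11 to 2.46 for day 10 over day 0, 2.22 to 2.58 for day 10 over day 3, and 0.92 to 0.99 for day 3 over day 0. The log2 difference of the peak nearest the start ranged from 0.79 to 1.02 at day 10 against day 0, 0.53 to 0.82 at day 3 against day 0, and 0.09 to 0.37 at day 10 against day 3. No paired analysis was possible because no result comes from a test. Low pileups limit the weak sites, and lists of unequal depth limit statements about unlisted ones.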

Other observations

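Set beside the 2584 megabases of the assembled chromosomes with a listed peak, the Bmp2 megabase held 16 strong regions, against a median of 22, and 1534 megabases, or 59.4%, held as many or more. It held 10 regions gained at day 10 against day 0, against a median of 2, and 293 megabases, or 11.3%, held as many or more. It held 1 lost region, against a median of 2. These values describe a megabase chosen with such counts known.

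Listed peaks of the megabase covered 9.07 and 9.59 kb at day 0, 9.87 and 9.60 kb at day 3, and 26.3 and 28.2 kb at day 10. The median width of a peak here was 199 and 211 bases at day 0, 211 and 188 at day 3, and 207 and 172 at day 10. Over whole lists it was 230 and 233 bases at day 0, 210 and 213 at day 3, and 161 and 166 at day 10.

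Sites close to each other differed about 84 kb before the Bmp2 start. A site at 84.1 kb had a fold of 7.57 and 6.93 at day 0, and 5.56 and 6.12 at day 3. It was not listed at day 10, where a neighbouring peak at 84.2 kb had a fold of 3.84 and 4.18. The region at 84.5 kb was listed on every day, with a fold of 6.99 and 7.51 at day 0, 14.5 and 13.9 at day 3, and 19.2 and 18.1 at day 10.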
